A study of Mus musculus with 6 samples.

Results

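Integrins, collagens and laminins tie a cell to the matrix around it. The members described here were all probes annotated to an integrin alpha or beta chain, to a collagen alpha chain or to a laminin chain, together with Sparc, Nid1 and Nid2. The choice was made by gene symbol alone. It gave 112 of the 25697 probes on the array and 72 of the 16593 annotated genes, namely 24 integrin, 37 collagen and 8 laminin genes and 3 others. No probe on the array carried the symbol Fn1, so fibronectin was not analysed here.

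Integrins are receptors made of 1 alpha and 1 beta chain, which grip collagen, laminin or fibronectin outside the cell and couple to actin inside it. Laminins are trimers of an alpha, a beta and a gamma chain, and with type IV collagen and the nidogens they build the basement membrane that wraps each heart muscle cell. Sparc is a secreted protein that binds collagen and calcium and helps collagen to be laid down in the heart.

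The cells were HL-1, an atrial cardiomyocyte line of the mouse, and their total RNA was read on 6 arrays of 1 Illumina MouseRef-8 chip. The 3 groups held 2 arrays each, from untreated cells, from cells incubated with a short 6-mer hyaluronan (o-HA) and from cells incubated with native-size hyaluronan of 1000 kDa (n-HA). All cells were kept in Claycomb medium, and the flasks used to maintain the line were coated with fibronectin and gelatin, which is denatured collagen. The cells came from a single line, the o-HA dose by mass was higher than the n-HA dose, and the hyaluronans were therefore set side by side and not tested against each other. The labels do not say whether replicates came from separate cultures, and the p-values then measure only the spread between arrays, which may be technical. The comparison asked whether hyaluronan outside a cardiomyocyte alters the genes by which that cell holds and builds its matrix.

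The arrays were not equal. The n-HA arrays had a mean bead intensity of 110.1 and 93.3, against 121.6 to 140.9 on the others, and 4546 to 4767 probes were detected on them against 5443 to 5763. Replicate 1 of n-HA stood apart, with across-probe correlations of 0.881 to 0.911 to the other arrays, which correlated with each other at 0.968 to 0.987. Each group lay at its own pair of places on the chip, so that place and treatment cannot be told apart. The cells carried 8 of 12 measured cardiomyocyte markers on both untreated arrays, among them Tnnc1, Myl7 and Nkx2-5, whereas Ryr2, Pln and Gata4 were detected on 0 arrays. Markers did not move together on n-HA replicate 1, where Myl4 (13.27 on the normalized log2 scale) and Nppa (7.73) were at their highest and Tnnc1, Myl7, Myh6, Actn2, Nkx2-5 and Tbx5 lay below both untreated arrays.

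A few promoter sequences are shown, those of the member with the smallest p-value with o-HA (Itga2b) and of the Col4a1 and Col4a2 pair, which lie head to head and share regulatory sequence. Each runs from 250 bases before to 50 bases after a transcript start (RefSeq, GRCm38.p6), 5′ to 3′ on the gene's own strand. Capitals mark matches, on either strand, to the CCAAT box, to a TATA element with the letters TATAAA, to a GC box with the letters GGGCGG, to a GATA motif (AGATAA or TGATAA) or to an ETS motif (AGGAAG or CGGAAG).
Itga2b, chr11:102469834-102470133, minus strand: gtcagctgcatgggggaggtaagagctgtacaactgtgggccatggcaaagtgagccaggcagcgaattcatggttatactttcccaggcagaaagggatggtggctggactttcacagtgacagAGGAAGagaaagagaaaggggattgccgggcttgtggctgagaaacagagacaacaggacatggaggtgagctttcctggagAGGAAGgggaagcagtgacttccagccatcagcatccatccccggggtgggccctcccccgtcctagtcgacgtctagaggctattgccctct
Col4a1, chr8:11312777-11313076, minus strand: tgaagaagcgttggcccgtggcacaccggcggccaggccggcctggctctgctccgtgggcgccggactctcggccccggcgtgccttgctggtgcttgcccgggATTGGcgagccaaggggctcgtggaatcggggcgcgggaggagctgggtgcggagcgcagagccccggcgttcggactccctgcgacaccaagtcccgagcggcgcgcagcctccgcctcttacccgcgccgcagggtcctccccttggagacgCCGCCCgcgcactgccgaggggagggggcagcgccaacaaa
Col4a2, chr8:11312555-11312854, plus strand: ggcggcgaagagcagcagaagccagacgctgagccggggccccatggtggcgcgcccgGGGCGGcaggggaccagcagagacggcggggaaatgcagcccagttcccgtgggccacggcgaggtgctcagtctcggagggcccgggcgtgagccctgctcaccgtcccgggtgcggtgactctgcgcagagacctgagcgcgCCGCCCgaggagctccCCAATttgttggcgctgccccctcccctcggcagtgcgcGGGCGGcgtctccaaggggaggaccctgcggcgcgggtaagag

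The Itga2b window held 2 ETS motifs, which 46.3% of 32544 windows of this length held at least once, and no match to the other motifs. The Col4a1 and Col4a2 windows share 78 bases, and 1 GC box lies in the shared stretch and is printed in both. A CCAAT box stood in each (37.4% of all windows) and 3 GC boxes in that of Col4a2 (35.9% of all windows held at least 1). Of the 18 genes tested below, 14 had a promoter window in the table. A match is only a description of the letters.

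Most of the family could not be seen in these cells. A probe was called detected on an array when its p-value against negative control beads was under 0.05, and tested when at least 2 of the 6 arrays detected it. That left 20 member probes of 18 genes (17.9% of member probes, against 24.1% of all probes). Another 11 probes were detected on 1 array. The other 81 were detected on 0 arrays (72.3% of member probes, against 66.4% of all probes). By gene, 8 of 24 integrins, 7 of 37 collagens and 2 of 8 laminins had a tested probe, as did Sparc. Fewer transcripts and a probe that binds poorly cannot be told apart here. Of the 8 tested genes with several probes, 6 also had a probe at background on all arrays, among them Itgb1, Itgb4 and Col6a1.

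**Figure D1:**
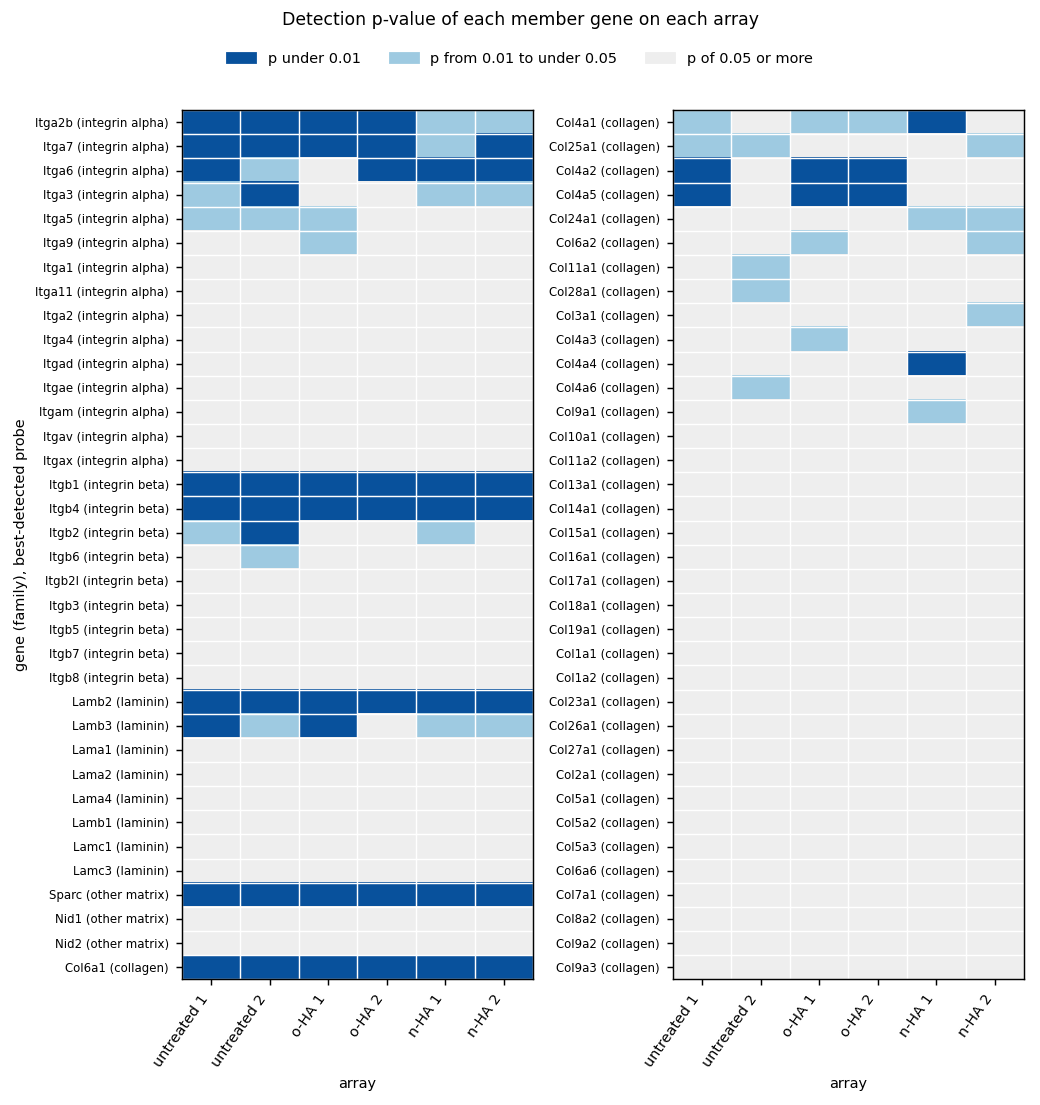
Detection p-value of the best-detected probe of each of the 72 member genes (rows) on each of the 6 arrays (columns), dark where p is under 0.01, light blue under 0.05 and grey otherwise. The 7 genes detected on every array were Itga2b, Itga7, Itgb1, Itgb4, Lamb2, Sparc and Col6a1, and 45 genes were detected on none.

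The alpha chains detected were those of laminin receptors (Itga3, Itga6 and Itga7), of the fibronectin receptor (Itga5) and of the platelet fibrinogen receptor (Itga2b). Their beta partners Itgb1, which pairs with most alpha chains, and Itgb4, which pairs with Itga6, were detected on all 6 arrays. Itgb2, the beta chain of leukocyte integrins, was detected on 3 arrays at 60.6 to 79.5 intensity units over all 6, near the array median of 61.4 to 63.7. The chains of collagen receptors Itga1, Itga2 and Itga11 were detected on 0 arrays, as were the vitronectin receptor chains Itgav, Itgb3 and Itgb5. Itgb3 is the partner of Itga2b, and its only probe read 50.6 to 60.0 units.

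Among collagens, the basement membrane chains Col4a1, Col4a2 and Col4a5 and the microfibril chains Col6a1 and Col6a2 were detected on at least 2 of the 6 arrays. So were Col24a1 and Col25a1, of which the second encodes a membrane-bound collagen. In untreated cells Col6a2 and Col24a1 were detected on 0 arrays, and Col4a1, Col4a2 and Col4a5 on 1 of 2. The other Col25a1 probes were detected on 0 arrays. The fibril-forming chains Col1a1, Col1a2, Col5a1 and Col5a2 were detected on 0 arrays and Col3a1 on 1. The fibroblast markers Dcn, Pdgfra and Thy1 were detected on 0 arrays. Of the laminins the beta chains Lamb2 and Lamb3 were detected. The beta chain Lamb1, the alpha chains Lama1, Lama2 and Lama4 and the gamma chains Lamc1 and Lamc3 were detected on 0 arrays. Nid1 and Nid2 were detected on 0 arrays. The 9 genes detected on 1 array were Itga9, Itgb6, Col11a1, Col28a1, Col3a1, Col4a3, Col4a4, Col4a6 and Col9a1.

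Levels are given below as normalized log2 intensity, in the order replicate 1 and replicate 2, and differences as log2 of treated over untreated. None of the 20 member probes passed an adjusted p of 0.05 for either hyaluronan with all 6 arrays (limma, 2 arrays against 2). In all, 0 of 6194 probes passed (0%). The spread was pooled over the 3 groups, so a wide gap between n-HA replicates also widens the errors given for o-HA. At an unadjusted p under 0.05 there were 1 member probe for o-HA and 3 for n-HA, against 78 and 1349 probes in all. Replicates of members lay a median of 0.25 apart in untreated cells, 0.17 after o-HA and 0.36 after n-HA. The standard error over beads was 3.20% to 9.19% of the intensity, from 22 to 59 beads a probe on an array.

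**Figure D2:**
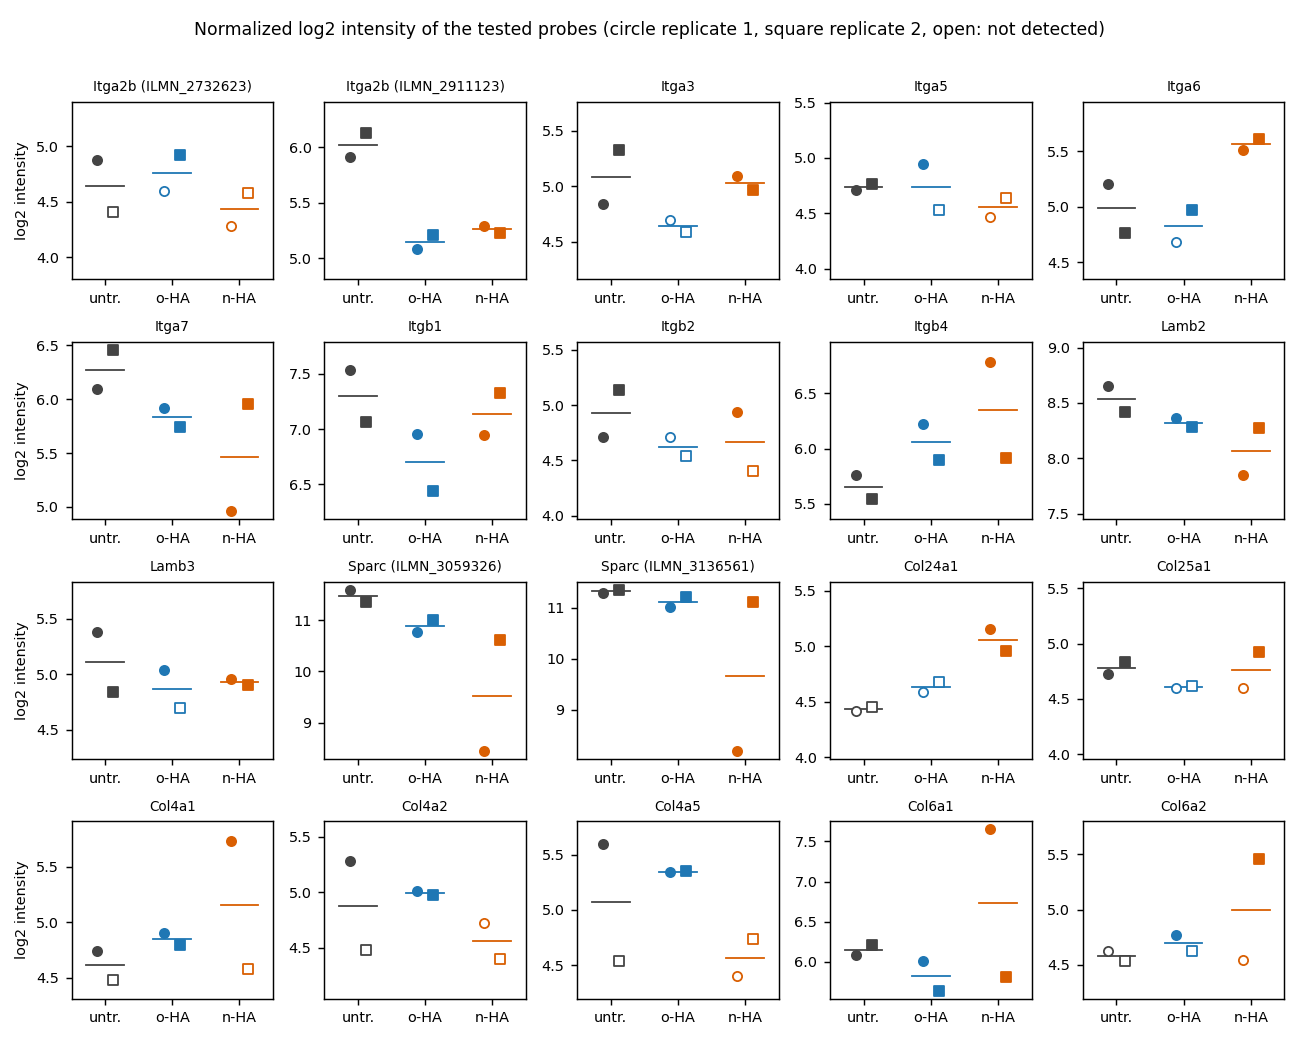
Normalized log2 intensity of the 20 tested member probes on the 6 arrays, in untreated, o-HA and n-HA cells (circles replicate 1, squares replicate 2, open where not detected, bars group means, a separate axis for each probe). Both Sparc probes are lowest on n-HA replicate 1, at 8.45 and 8.20, and Itga2b at ILMN_2911123 is below untreated cells on all 4 treated arrays.

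Itga2b, the alpha chain of the platelet fibrinogen receptor, was lower with both hyaluronans at probe ILMN_2911123. The levels were 5.92 and 6.13 in untreated cells, 5.09 and 5.21 after o-HA and 5.29 and 5.23 after n-HA. All 4 treated arrays lay below both untreated arrays. With o-HA the difference was -0.88 (SE 0.21, 95% interval -1.39 to -0.37), or 1.84-fold lower (adjusted p = 1, limma). It was the sole member among the 44 probes that were lower with an unadjusted p under 0.05 (0.71% of those tested), and 0 members were among the 34 that were higher (0.549%). With n-HA the difference was -0.76 (SE 0.21, adjusted p = 0.176, limma), or 1.70-fold lower. In RNA of a whole culture, fewer cells with a transcript and less transcript per cell cannot be told apart.

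Without n-HA replicate 1, Itga2b fell with o-HA (-0.92, SE 0.18, adjusted p = 0.043, limma). It was then the only member among 14 probes that fell (0.238% of 5893), and 0 members rose, against 10 probes in all (0.17%). Without n-HA replicate 2 the value was -0.93 (adjusted p = 0.0428), but leaving out either n-HA array gives nearly the same o-HA comparison. It did not pass when an untreated or o-HA array was left out, where the difference ranged from -0.77 to -0.93. Nor did it pass when only the o-HA and untreated arrays were fitted (-0.99, adjusted p = 0.0953). The untreated and o-HA arrays are shared by all of these fits.

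The other Itga2b probe (ILMN_2732623) did not follow. It read 4.88 and 4.40 in untreated cells, 4.60 and 4.92 after o-HA and 4.28 and 4.58 after n-HA, with a difference of 0.12 (SE 0.27) for o-HA. It was detected on 2 of 6 arrays, so it lay close to background, and the groups overlapped. Among leukocyte and platelet markers, 7 were on the array and 5 were detected on 0 arrays, Ptprc and Pf4 included. Their summed level was 63 and 66 in untreated cells, 51 and 53 after o-HA and 58 and 74 after n-HA. The platelet receptor gene Gp1bb stood at -0.32 with o-HA (adjusted p = 1). The part of these markers in the Itga2b values was not tested.

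Itgb1, the common partner of the laminin and fibronectin receptor chains, read 7.53 and 7.07 in untreated cells, 6.96 and 6.44 after o-HA and 6.94 and 7.33 after n-HA. Both o-HA arrays lay below both untreated arrays, by a mean of -0.60 (SE 0.30, adjusted p = 1, limma). The n-HA arrays overlapped with untreated cells at -0.16 (SE 0.30). The deposited intensity, before arrays were scaled to each other, was 315 and 180 units in untreated cells and 133 and 130 with n-HA. Without normalization between arrays the n-HA difference was -1.15 (adjusted p = 0.0638), while the median of all probes lay at -0.35. The n-HA difference of Itgb1 thus moved with the scaling.

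Of the laminin receptor chains, Itga7, the main alpha chain of mature muscle, read 6.09 and 6.46 in untreated cells, 5.92 and 5.74 after o-HA and 4.96 and 5.96 after n-HA. Every treated array lay below both untreated arrays. The differences were -0.44 (SE 0.36) for o-HA and -0.81 (SE 0.36, adjusted p = 0.247) for n-HA. Itga3 read 4.84 and 5.33 untreated and 5.09 and 4.97 with n-HA, and neither o-HA array detected it. It was at least 1.28-fold lower there, a bound that sets the untreated mean against the lowest level still detected on the o-HA arrays. Such a bound leaves out the spread between arrays. The Itga3 difference with o-HA was -0.44 (95% interval -1.04 to 0.15). Itga6 read 5.20 and 4.76 untreated, 4.68 and 4.97 after o-HA and 5.51 and 5.61 after n-HA. Its n-HA arrays were above all others, with a difference of 0.58 (SE 0.25, adjusted p = 0.239). In deposited units they overlapped with untreated cells (83.0 and 78.3 against 90.6 and 71.6), and without normalization between arrays the difference was 0.01.

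Itgb4, the partner of Itga6 in hemidesmosomes of epithelia, read 5.76 and 5.55 untreated, 6.22 and 5.90 after o-HA and 6.78 and 5.91 after n-HA. All 4 treated arrays lay above both untreated arrays, at 0.41 (SE 0.34) for o-HA and 0.69 (SE 0.34, adjusted p = 0.272) for n-HA. In deposited units it read 119 and 89.9 untreated and 124 and 82.9 with n-HA, so the higher n-HA levels of replicate 2 arose after normalization. Without normalization the difference for n-HA was -0.07, above the median of all probes. Itga5 read 4.71 and 4.76 untreated and 4.94 and 4.53 with o-HA, and neither n-HA array detected it. Itgb2 read 4.72 and 5.14 untreated and 4.93 and 4.41 with n-HA, and neither o-HA array detected it (at least 1.14-fold lower by the bound). Its o-HA difference was -0.30 (95% interval -0.99 to 0.38), so no change lay within the interval.

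**Figure D3:**
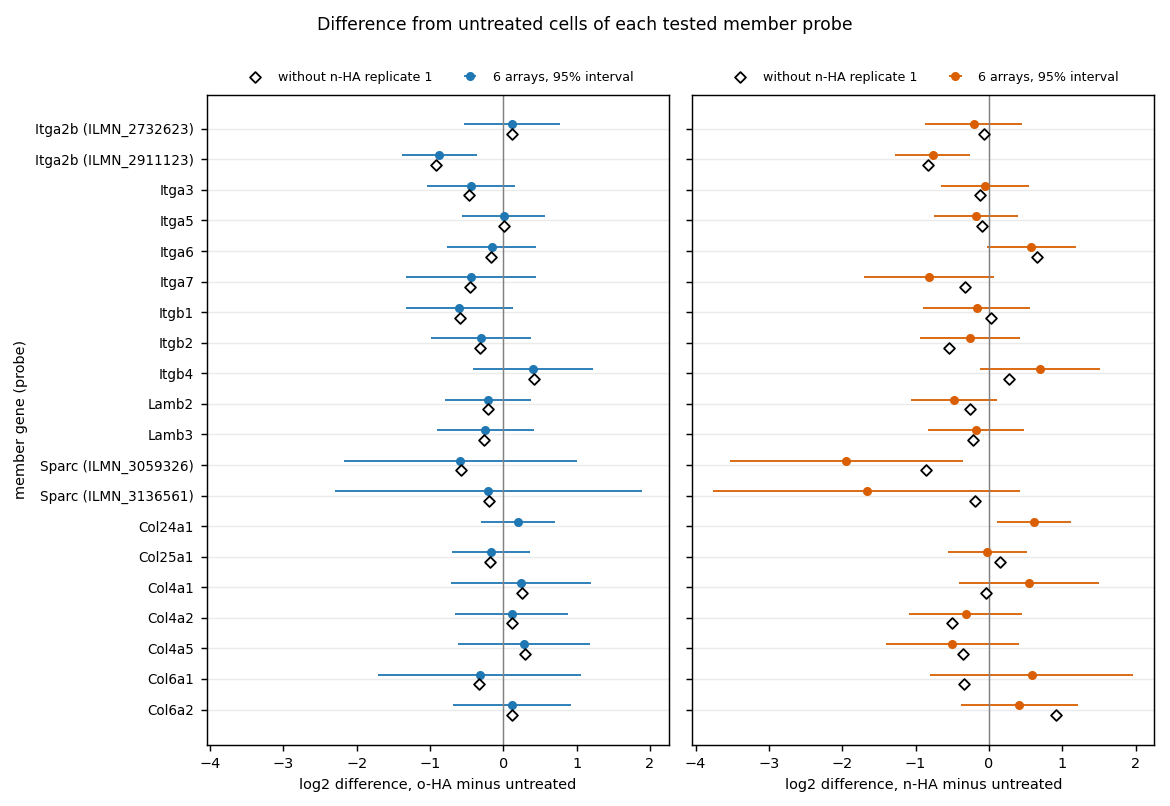
Log2 difference from untreated cells of the 20 tested member probes with o-HA (left) and n-HA (right). Filled points with bars are values and 95% intervals from all 6 arrays, and open diamonds are the values without n-HA replicate 1, which gives none for Col24a1. The Sparc differences with n-HA move from -1.94 and -1.66 to -0.86 and -0.19.

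Sparc had the widest n-HA differences among the 20 probes. Probe ILMN_3059326 read 11.60 and 11.35 in untreated cells, 10.77 and 11.00 after o-HA and 8.45 and 10.61 after n-HA. Probe ILMN_3136561 read 11.29 and 11.36, then 11.02 and 11.22, then 8.20 and 11.13. At both probes every treated array lay below both untreated arrays, and n-HA replicate 1 lay far below the rest. The n-HA replicates lay 2.93 apart at the second of these probes, the largest gap of any member. In deposited units the 2 probes gave 2777 to 4043 in untreated cells, 1837 to 2729 with o-HA, 845 and 1191 on n-HA replicate 2 and 313 and 270 on n-HA replicate 1.

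The n-HA differences were -1.94 (SE 0.65, adjusted p = 0.189, limma) and -1.66 (SE 0.86, adjusted p = 0.294). Those of o-HA were -0.59 (SE 0.65) and -0.21 (SE 0.86), both with adjusted p = 1. These errors include the spread of the n-HA arrays, whose SD was 1.53 and 2.07 at the 2 probes. The SD was 0.18 and 0.05 in untreated cells and 0.16 and 0.14 after o-HA. Without n-HA replicate 1, Sparc fell with n-HA at ILMN_3059326 (-0.86, SE 0.22, adjusted p = 0.0193), while ILMN_3136561 stood at -0.19. With replicate 1 as the only n-HA array the values were -3.01 (adjusted p = 1.08e-07) and -3.12 (adjusted p = 7.33e-08). These calls set 1 n-HA array against 2 untreated arrays, and assume that it varies like the other groups. The size of the n-HA difference thus rested on replicate 1. With o-HA ILMN_3059326 stood at -0.58 (SE 0.18, adjusted p = 0.171) without that array. Fibroblasts and smooth muscle cells also make Sparc. Of 10 fibroblast markers 9 were detected on 0 arrays, with summed levels of 49 and 45 in untreated cells, 56 and 43 after o-HA and 58 and 65 after n-HA. Of 9 endothelial markers on the array 2 were tested (Tek and Egfl7) and 5 were detected on 0 arrays. Their summed level was 374 and 446 in untreated cells, 358 and 417 after o-HA and 457 and 282 after n-HA. Of 8 smooth muscle markers 6 were tested and Myh11 and Cnn1 were detected on 0 arrays. With n-HA 3 of the 6 were higher and 3 lower. On n-HA replicate 1, where Sparc was lowest, Acta2 (13.36), Des (9.43) and Mylk (6.73) were at their highest, while Tagln (5.03) and Smtn (7.41) were at their lowest. The part of these markers in the Sparc values was not tested.

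Lamb2, the beta chain of laminins at muscle fibres and synapses, read 8.65 and 8.42 untreated, 8.37 and 8.28 after o-HA and 7.85 and 8.28 after n-HA. Every treated array lay below both untreated arrays. The differences were small, at -0.21 (SE 0.24) for o-HA and -0.47 (SE 0.24, adjusted p = 0.29) for n-HA. In deposited units Lamb2 was 623 and 391 untreated, 401 and 422 after o-HA and 220 and 204 after n-HA. Lamb3, a chain of the epithelial laminin that binds Itga6 and Itgb4, read 5.38 and 4.84 untreated, 5.04 and 4.69 after o-HA and 4.96 and 4.91 after n-HA, and the groups overlapped.

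The collagens lay closer to the detection limit, and of them Col6a1 alone was above it throughout. Col6a1, a chain of the beaded filaments around muscle cells, read 6.09 and 6.21 untreated, 6.01 and 5.64 after o-HA and 7.65 and 5.82 after n-HA. The n-HA replicates thus lay on opposite sides of untreated cells (0.58, SE 0.57), and both o-HA arrays lay below them (-0.32, SE 0.57). Col6a2, its partner in the same trimer, read 4.63 and 4.54 untreated, 4.77 and 4.62 after o-HA and 4.54 and 5.45 after n-HA, with the higher value on replicate 2. Neither untreated array detected Col6a2.

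Of the type IV chains, Col4a1 read 4.74 and 4.48 untreated, 4.90 and 4.80 after o-HA and 5.74 and 4.58 after n-HA. Col4a2, which shares the promoter stretch printed above and the same trimer, read 5.28 and 4.48, then 5.01 and 4.97, and neither n-HA array detected it (4.73 and 4.40). On n-HA replicate 1, therefore, Col4a1 was at its highest and Col4a2 was not detected. Col4a5 read 5.59 and 4.54 untreated, a gap of 1.05 that was the largest among untreated replicates, and 5.34 and 5.35 with o-HA. Neither n-HA array detected it (at least 1.17-fold lower by the bound), nor did untreated replicate 2. The n-HA difference of Col4a5 was -0.50 (95% interval -1.40 to 0.41), so no change lay within the interval. Without untreated replicate 1 it was 0.02. None of these differences exceeded 0.55 in size or had an unadjusted p under 0.2.

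Col24a1, a fibrillar collagen of bone and cornea, was detected by both n-HA arrays (5.15 and 4.95) and by no other array. It stood at least 1.26-fold higher than in untreated cells (adjusted p = 0.187, limma). It was the sole member among 577 probes that were higher with an unadjusted p under 0.05 (9.32% of those tested), and Itga2b and Sparc were among 772 that were lower (12.5%). It was tested only because the n-HA arrays detected it, so a difference had to follow. Its other probes were detected on 0 arrays. Col25a1 read 4.73 and 4.83 untreated and 4.60 and 4.92 with n-HA, and neither o-HA array detected it (at least 1.03-fold lower by the bound). Its o-HA difference was -0.17 (95% interval -0.71 to 0.36), so no change lay within the interval.

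With 1 n-HA array left out, other members were called for n-HA. Col6a2 was detected only on o-HA replicate 1 and n-HA replicate 2, so it was tested in part through the array that read high. In deposited units that n-HA array read 76.3, against 70.4 and 66.0 in untreated cells. With replicate 2 alone, Col6a2 rose (0.92) beside the falls of Itga2b (-0.83) and of Sparc. These were 1 of 19 members higher and 2 lower, where 7.36% and 9.77% of all probes were called. With replicate 1 alone, Col4a1 (1.21), Col6a1 (1.52) and Itgb4 (1.16) rose. Itga2b (-0.78), Itga7 (-1.39), Lamb2 (-0.68) and both Sparc probes fell. These were 3 of 18 probes higher and 5 lower, where 26.8% and 27.3% of all probes were called. Itga2b at ILMN_2911123 and Sparc at ILMN_3059326 were called with either array. Both fits share the untreated arrays.

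Over the family, more probes were lower than higher with o-HA. Of the 20 tested probes 12 were lower and 8 higher (50.3% of all tested probes were higher), with a median of -0.19 against 0.00 over all tested probes. The median was -0.10 with no background correction or with an offset of 50, and -0.38 over the members detected on all 6 arrays. Both o-HA arrays lay below both untreated arrays at 10 member probes of 9 genes, or 50%, where 22% of all tested probes did so. They lay above at 3 (15%), where 21.7% did so. The 10 were Col25a1, Col6a1, Itga2b, Itga3, Itga7, Itgb1, Itgb2, Lamb2 and both Sparc probes. Of these, Col25a1, Itga3 and Itgb2 were detected on both untreated arrays and on neither o-HA array. Col25a1 and Itgb2 passed the filter only with the help of the untreated arrays, so their lower o-HA levels follow in part from it. Integrins had 6 of 9 lower (median -0.30), collagens 2 of 7 (median 0.12) and both laminins. Without untreated replicate 1 the median was -0.10. Of the cardiomyocyte markers 6 of 8 tested genes were also lower with o-HA (median -0.52). Their summed level, in normalized intensity, was 7596 and 6940 in untreated cells against 5331 and 5786. Tnnc1 and Myl4, the brightest of them, weigh most in this sum. Tnnc1 read 11.26 and 11.40 untreated and 10.09 and 10.13 with o-HA, at -1.22 the lowest difference of all tested probes. Myl4 stood at 0.00 and Nppa at 0.17. The part of these markers in the values of the family was not tested.

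With n-HA 14 of 20 probes were lower and 6 higher (49.3% of all tested probes were higher), with a median of -0.18 against -0.01 over all. The groups did not overlap at 6 probes lower (30%, against 30.5% of all tested probes) and 3 higher (15%, against 23.8%). Both shares of members were at or below those of all probes. Without untreated replicate 1 the median was 0.02. It was -0.09 with an offset of 50, -0.11 with no background correction and -0.62 over the members detected on all 6 arrays. Integrins had 7 of 9 lower (median -0.18) and collagens 3 of 7 (median 0.42). Of the cardiomyocyte markers 6 of 8 were lower with n-HA (median -0.41). Their summed level was 12339 and 5950 with n-HA, against 7596 and 6940 untreated. The n-HA replicates thus lay on opposite sides of untreated cells in this sum. The part of these markers in the values of the family was not tested.

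Genes that work with these receptors and matrix proteins were read from 4 lists, with 1 probe a gene. None of them passed over all probes for either hyaluronan. Of 18 tested genes of integrin adhesion and signalling, 12 were higher and 6 lower with o-HA (median 0.06), and 8 higher and 10 lower with n-HA (median -0.06). Unadjusted p-values under 0.05 were found for n-HA only, at 4 genes higher and 3 lower of 18, where 9.32% of all tested probes were higher and 12.5% lower at that level. Git1, a scaffold of focal adhesions, read 5.26 and 5.71 untreated, and neither n-HA array detected it (4.45 and 4.43, at least 1.56-fold lower, adjusted p = 0.16). Cd81, a tetraspanin that binds integrins, read 5.85 and 6.10 untreated and 6.74 and 7.16 with n-HA (0.97, SE 0.24, adjusted p = 0.17). Its deposited intensities overlapped, at 125 and 113 untreated and 122 and 121 with n-HA, so the groups stood apart only after normalization. The n-HA arrays were dimmer as a whole, and the part of the scaling in this difference was not tested. Of the adaptor Crk neither n-HA array was above detection (at least 1.18-fold lower, adjusted p = 0.176, limma). Actn1, an alpha-actinin, stood at 0.94 with n-HA (SE 0.30, adjusted p = 0.18, limma). Its deposited intensities overlapped as well, at 99.5 and 78.5 untreated and 112 and 81.2 with n-HA. The talins Tln1 and Tln2 and paxillin (Pxn) were detected on 0 arrays.

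The collagen enzymes had 3 of 10 tested genes higher and 7 lower with o-HA (median -0.21), and 2 higher and 8 lower with n-HA (median -0.24). Plod3, a lysyl hydroxylase, stood against them, at 4.73 and 4.54 untreated and 6.19 and 5.66 with n-HA (1.29, SE 0.27, adjusted p = 0.159, limma). Other basement membrane and matricellular genes had 5 of 13 higher with o-HA (median -0.21) and 8 of 13 with n-HA (median 0.31). Sgca, a sarcoglycan of the muscle membrane, stood at -0.70 with n-HA (SE 0.21, adjusted p = 0.176). Hspg2, the perlecan core protein, read 9.63 and 9.53 untreated and 10.40 and 10.12 with n-HA (0.68, SE 0.22, adjusted p = 0.18). Ccn1, a matrix protein that integrins bind, read 6.39 and 6.02 untreated and 5.15 and 5.59 with n-HA (-0.83, SE 0.27, adjusted p = 0.183).

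Of the matrix proteases and their inhibitors, 7 of 11 were higher with o-HA (median 0.05) and 5 with n-HA (median -0.02). Mmp14, a membrane-bound collagenase, read 8.53 and 8.57 untreated, 9.08 and 8.88 after o-HA and 9.92 and 9.36 after n-HA. All 4 treated arrays were above both untreated arrays, at 0.43 for o-HA (adjusted p = 1) and 1.09 for n-HA (SE 0.26, adjusted p = 0.165). Adam15, a membrane protease, stood at -0.62 with n-HA (SE 0.20, adjusted p = 0.181), and the inhibitor Timp2 at least 1.23-fold higher. Timp2 was tested only because the n-HA arrays, and no others, detected it, so a difference had to follow. In deposited units n-HA replicate 2 read 388 for Mmp14 and 640 for Hspg2, below both untreated arrays, so that their higher n-HA levels on that array arose after normalization.

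**Figure D4:**
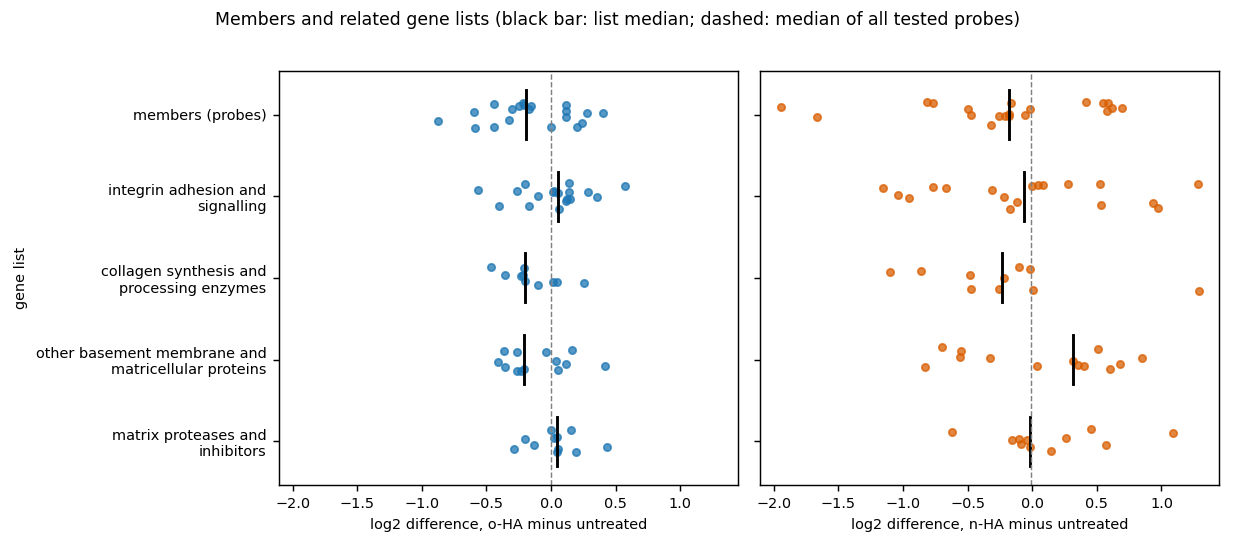
Log2 difference from untreated cells with o-HA (left) and n-HA (right) for the 20 member probes and for the tested genes of 4 related lists, 1 probe a gene. Each point is a probe, black bars are list medians and the dashed line is the median of all tested probes. The medians lie between -0.21 and 0.06 for o-HA and between -0.24 and 0.31 for n-HA.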

How the data were processed

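Total RNA of HL-1 cells was amplified with the Illumina TotalPrep kit and hybridized to a MouseRef-8 beadchip. The authors deposited the mean bead intensity of each probe before normalization, on a linear scale, exported from BeadStudio 3.3 as their processing notes name it. The same deposited table gives a detection p-value, bead numbers and standard errors. In a second table the authors deposited intensity values normalized by cubic spline, whose column medians were 1.687 to 1.694. Of its values 38.1% were below 0 in each column, and ranks equalled those of the first table. Its scale is linear, and which background was subtracted is not stated.

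Bead intensities were background-corrected with neqc (limma 3.58.1, R 4.3.3), which infers the negative controls from detection p-values here, adds 16, and ends with quantile normalization and log2. The 6194 probes that 2 or more arrays detected (detection p-value under 0.05) were tested. A mean per group was fitted to all 6 arrays by lmFit and eBayes, with 3 residual degrees of freedom and 3.145 from the prior. Two-sided p-values were Benjamini-Hochberg adjusted over the tested probes and called at 0.05. The fitting was tested on simulated data. The test run by the authors is internal to BeadStudio and was not run. No 2 arrays held equal values at any probe. The number of arrays limits the precision.

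Symbols came from the platform annotation and were updated by Entrez ID (23978 probes with 1 symbol, 0 with several, 1719 with none). Where neither array of a group detected a probe, the other group's mean was compared with the lowest detected log2 value there, or the probe's own if higher, and is given as "at least". This bound takes no account of the spread between arrays. Marker sums are normalized intensities less the offset, with 1 probe a gene. Every member gene with a tested probe was named, and up to 4 genes of each related list with the smallest p. Marker genes were named apart from this rule. The members and lists were chosen with earlier results of these data known. The RefSeq annotation was used for symbols and promoter windows.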

Additional observations from a re-analysis of the deposited data

How the results depend on the processing

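The results were recomputed with no background correction, an offset of 50, no normalization between arrays, the authors' normalized values, other filters on dim probes, array weights, fits of the 2 groups compared, and each array left out. For o-HA the count of member probes past the threshold was 0 with all 6 arrays and 0 under these settings, except 1 (Itga2b) with array weights and a range of 0 to 1 when an array was left out. Array weights were 2.13 for untreated and o-HA arrays and 0.22 for both n-HA arrays. With 2 arrays a group and a mean per group, both arrays of a group get the same weight. These weights therefore cannot tell the n-HA replicates apart. For n-HA the count was 0, and 5 (all lower) with no normalization between arrays, where 1472 probes passed and the median of all probes lay at -0.35. It ranged from 0 to 8 when an array was left out, with 3 without n-HA replicate 1 and 8 without n-HA replicate 2. Over all probes 24 passed for o-HA with 1 n-HA array left out (either) and 26 with array weights. For n-HA 1010 passed without n-HA replicate 1, 3221 without replicate 2, 12 with no filter and 8 with array weights. The cause was not tested.

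With the replicate number as a block, 0 member probes passed for o-HA and 0 for n-HA, and no call changed. The labels share only a number across groups, and replicate gaps correlated at -0.114, 0.153 and -0.0449 between pairs of groups. Of the 20 member differences 14 kept their sign for o-HA and 10 for n-HA under every setting that tested them. Those of Itga2b at ILMN_2911123 and of both Sparc probes were among these. The member median was -0.26 for o-HA and -0.34 for n-HA with no normalization between arrays. The medians of all tested probes were then -0.02 and -0.35, so for n-HA the members lay near all probes. With a detection p under 0.01 the member median for n-HA was -0.39, against -0.06 over all tested probes. Members under detection on both arrays of a group (9 of the 20) have only a bound there.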
